A study of Oryctolagus cuniculus with 34 samples.

Results

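Pericytes wrap the capillaries of muscle and smooth muscle cells form the wall of its larger vessels, and together they are called mural cells. The genes described here are 9 markers of these cells: RGS5, PDGFRB, CSPG4 and MCAM, known from pericytes, and MYH11, ACTA2, TAGLN, CNN1 and LMOD1, known from contractile smooth muscle. They were chosen by name, and 8 of the 9 were found among 18176 genes. CNN1 was not analysed here, since 0 gene entries carried that name. All 8 passed every filter on low counts.

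Bulk RNA sequencing was done on rabbit (Oryctolagus cuniculus) supraspinatus, the muscle of the rotator cuff that lifts the arm at the shoulder. In the short term 4 libraries came from muscle with the injury only, 5 from muscle with a repair only, and 5 from muscle with a repair and a gel made from extracellular matrix of tissue. In the long term 5 libraries came from repaired muscle, 5 from muscle repaired with the gel, and 10 from uninjured muscle. The labels name no strain, age, sex, kind of injury or length of a term. Injury only exists in the short term alone and uninjured muscle in the long term alone.

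PDGFRB is the receptor through which PDGF-B from endothelial cells recruits pericytes, and CSPG4 (also called NG2) is a proteoglycan on their surface. Smooth muscle contracts through MYH11, its myosin heavy chain, and ACTA2, its alpha-actin, with TAGLN (transgelin) bound to the actin and LMOD1 (leiomodin) nucleating its filaments. These genes are not exclusive to mural cells: fibroblasts express PDGFRB, and myofibroblasts, the contractile cells of healing tissue, switch on ACTA2 and TAGLN.

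Levels are CPM, counts per 1e6 counts of a library, scaled by TMM, which corrects for a few abundant genes. They compare a gene between libraries, not 1 gene with another, since gene lengths were not used. A short-term library held 26904529 to 32313295 counts and a long-term one 12582302 to 15019158. Term, depth and any batch that went with them therefore cannot be told apart. The lowest member count in any library was 39, for TAGLN. The 11 skeletal fibre genes found summed to between 50180 and 351200 CPM in each library of this skeletal muscle. Several libraries stood apart from their groups. Injury replicate 3 had the lowest fibre sum of its group (68960 CPM, the others 238700 to 351200), and repair replicate 4 of the short term the highest of its own (314500 CPM, the others 50180 to 144500). Gel replicate 1 of the long term had 32.9% of 11605 genes below, and 30.9% above, all 19 other long-term libraries.

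RGS5, a regulator of G protein signalling used as a pericyte marker, was at 82.6, 108, 195 and 109 CPM after injury only. In the short term it was at 66.1, 143, 104, 139 and 102 CPM after repair, and at 114, 71.6, 74.4, 104 and 133 CPM with the gel. The 3 groups overlapped, and their medians lay between 103.8 and 108.2 CPM. Long-term values were 242, 206, 287, 162 and 202 CPM after repair, and 23.9, 179, 217, 197 and 188 CPM with the gel. Uninjured muscle ranged from 129.5 to 344.4 CPM with a median of 229.2 CPM. In the long term every library but gel replicate 1 was above 129 CPM, and that library, at 23.9 CPM from 228 counts, was the lowest of all 34.

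PDGFRB was at 32.9, 34, 99.7 and 40.7 CPM after injury only, where replicate 3 stood apart. It was at 104, 94, 67.8, 37.7 and 152 CPM after short-term repair and at 78.4, 69.2, 124, 59.8 and 54.6 CPM with the gel. Repair replicate 4, the library rich in fibre genes, was the only one of these 10 within the range of the other 3 injury libraries. Long-term medians were 41.7 CPM in uninjured muscle, 45.7 CPM with the gel and 47.9 CPM after repair, and the groups overlapped.

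CSPG4 was at 27.9, 24.4, 56.3 and 41.6 CPM after injury only, 75.1, 79.4, 43.2, 16 and 46.5 CPM after short-term repair, and 51.9, 37.5, 55.7, 34.1 and 27.9 CPM with the gel. Its long-term values were 28.1, 18.6, 26.2, 31.5 and 18.7 CPM after repair and 50.9, 22.1, 21.9, 20.7 and 15.4 CPM with the gel. Uninjured muscle had 12.4 to 25.9 CPM, with a median of 17.4 CPM, the lowest median of the 6 groups. Gel replicate 1, which had the least RGS5, had the most CSPG4 of the long-term libraries. MCAM (CD146), an adhesion molecule of pericytes, smooth muscle and endothelium, had medians of 28.4 CPM after injury, 38.8 CPM after repair and 31.9 CPM with the gel in the short term. Its long-term medians were 21.4 CPM in uninjured muscle, 22.3 CPM after repair and 23 CPM with the gel.

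MYH11 was at 23.2, 19.8, 36.4 and 20.6 CPM after injury only, 22.3, 35.9, 21.9, 17.1 and 47.3 CPM after short-term repair, and 38, 19.2, 19, 25.1 and 21.6 CPM with the gel. It was at 73.1, 55.3, 66.7, 43.3 and 56.5 CPM after long-term repair and at 78.1, 64.1, 50.4, 61.6 and 84.5 CPM with the gel. Uninjured muscle had 34.2 to 107.9 CPM with a median of 56.7 CPM. The 3 long-term medians lay together above the 3 short-term ones, which were 21.6, 21.9 and 22.3 CPM.

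ACTA2 was set apart by 2 libraries of the short term. After injury only it was at 30.2, 36.6, 116 and 44.2 CPM, after short-term repair at 71.9, 71.3, 54.7, 26.4 and 986 CPM, and with the gel at 132, 279, 1830, 47.3 and 72.7 CPM. Repair replicate 5 and gel replicate 3 thus held far more ACTA2 than any other library. All 20 long-term libraries lay between 29.5 and 77.5 CPM.

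TAGLN was at 15.8, 16.9, 66.5 and 25.9 CPM after injury only, 34.9, 48.8, 41.1, 15.5 and 541 CPM after short-term repair, and 55.8, 25.5, 56.5, 27.3 and 25.3 CPM with the gel. It was high with ACTA2 in repair replicate 5 but not in gel replicate 3. Long-term values were 5.45, 3.56, 4.68, 8.51 and 3.92 CPM after repair, 14.5, 7.33, 4.28, 6.42 and 5.66 CPM with the gel, and 3.18 to 10 CPM in uninjured muscle. Uninjured long-term muscle (median 6.67 CPM) did not overlap injury only (21.4 CPM), groups that differ in injury, term and depth alike. The share of all genes without such overlap is not given here.

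LMOD1 ran the other way in the short term. It was at 186, 231, 35.2 and 71.7 CPM after injury only, 23.9, 22.6, 46.4, 89.7 and 16.5 CPM after repair, and 46.4, 79.9, 23.3, 102 and 112 CPM with the gel. Its median was lowest after short-term repair (23.9 CPM) and highest after injury only (128.8 CPM), and these 2 groups overlapped through injury replicates 3 and 4 and repair replicates 3 and 4. Long-term medians were 71.3 CPM after repair, 86.8 CPM in uninjured muscle and 115.8 CPM with the gel.

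**Figure D1:**
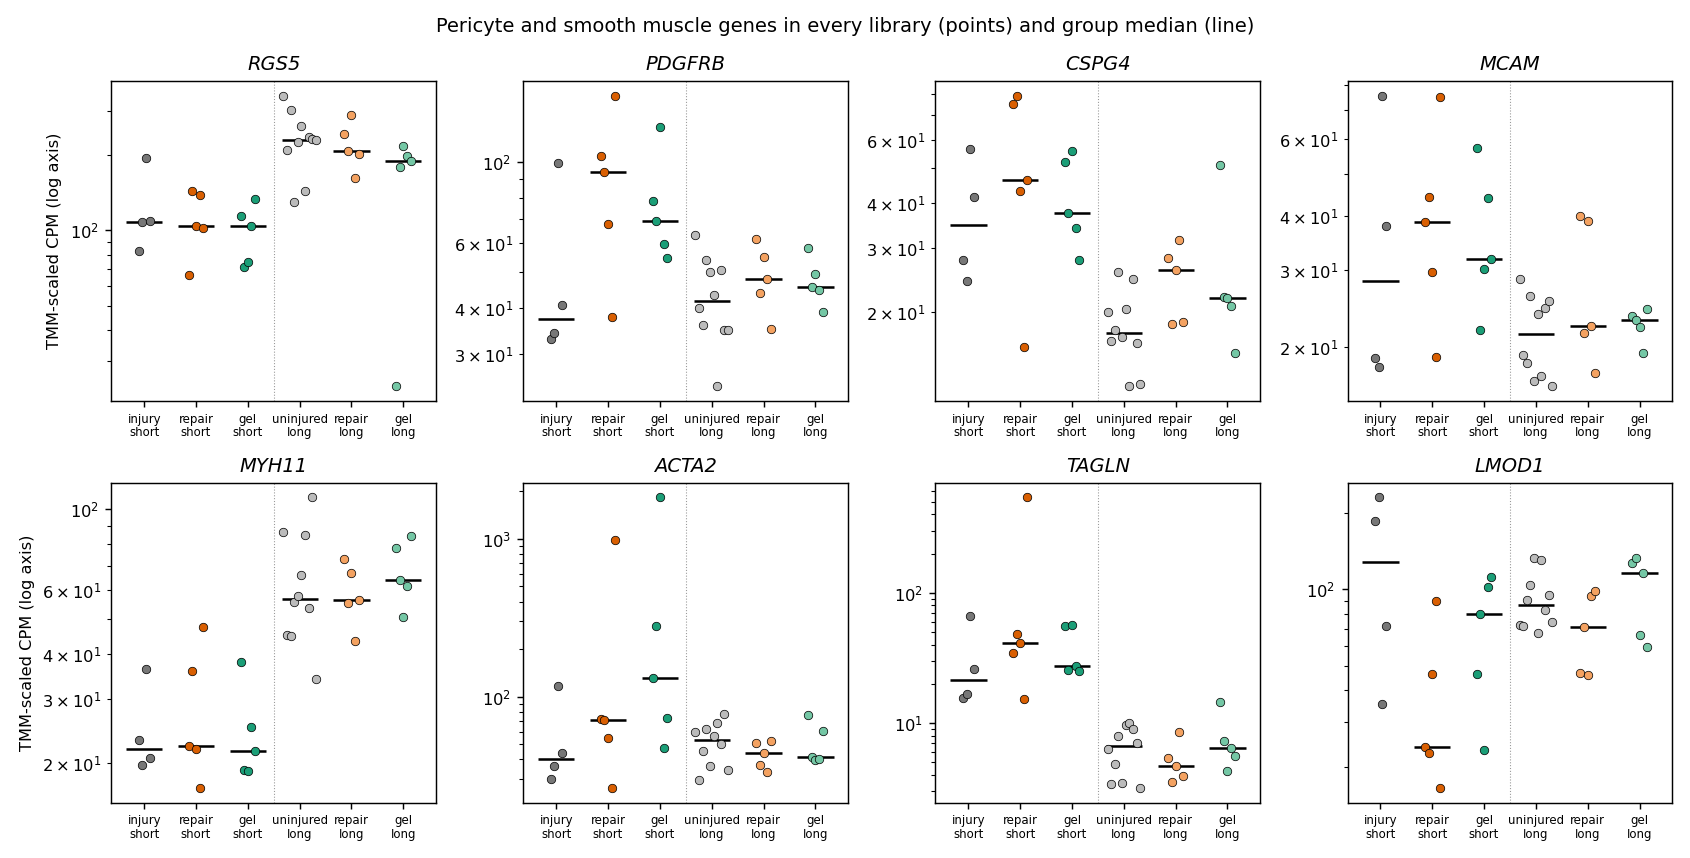
Level of each of the 8 genes in every library, in TMM-scaled CPM on log axes, by group; points are libraries and lines group medians, with short-term groups left of the dotted line. MYH11 and RGS5 lie higher and TAGLN lower in the long-term groups, and ACTA2 reaches 986 and 1830 CPM in 1 repair and 1 gel library of the short term.

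Gel and repair were first compared in the short term, with 5 libraries each. No member passed the test: edgeR's quasi-likelihood test with Benjamini-Hochberg adjustment over 13526 genes called 0 of 8, against a background of 0% of genes. At an unadjusted p under 0.05 there were 0 members and 1404 genes, and DESeq2 called 0.939% of genes and 0 of the 7 members to which it gave a p. In each short-term comparison DESeq2 gave TAGLN no p. The largest differences from 0 were those of TAGLN (log2 difference, gel minus repair, -1.81, SE 0.85, adjusted p 0.481), ACTA2 (0.99, SE 1.11, adjusted p 0.767) and LMOD1 (0.93, SE 0.58, adjusted p 0.591). The other 5 lay between -0.30 and -0.12. Beside them, 16 of 16 fibroblast genes lay below 0 (median -1.19, 0 called). In bulk muscle, fewer cells of a type and less RNA per cell cannot be told apart. The labels do not say that the libraries came from separate animals, so p-values measure the spread between these libraries. Animal codes in the names of the deposited files were used here for the long term only.

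Both actin-related values rested on single libraries. Without gel replicate 3 the ACTA2 difference was -0.82, and without repair replicate 5 it was 3.09. Without repair replicate 5 the TAGLN difference was 0.14. Repair replicate 5 also had the highest sum of 16 fibroblast genes of any library (90150 CPM, other short-term libraries 1373 to 23560), and ACTG2, the enteric smooth muscle actin, was at 105.7 CPM there against 1.69 to 11.2 CPM in the 33 others. Gel replicate 3 had 4.3 CPM of ACTG2, but the most ACTC1, the cardiac actin that immature skeletal muscle also makes (10980 CPM). MYH3, the embryonic myosin, named after its values were seen, was at 2987 CPM there, also above all other libraries. ACTA2, ACTC1, ACTA1 and ACTG2 encode near-identical proteins. No source used here says how reads shared between these genes, if any, were counted, and their part in the levels was not tested. The part of these genes and of the fibroblast genes in the ACTA2 difference was not tested.

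**Figure D2:**
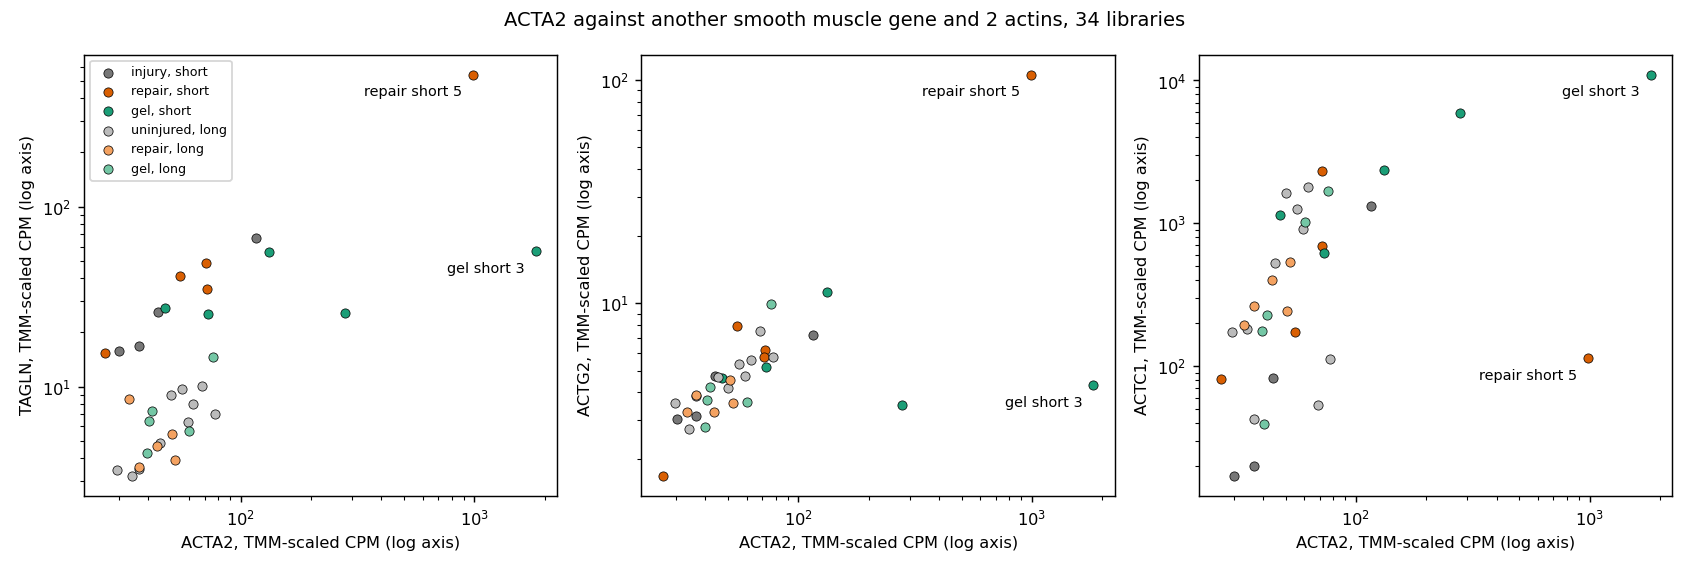
ACTA2 (x axis) against TAGLN, ACTG2 and ACTC1 (y axes) in TMM-scaled CPM on log axes; each point is 1 of 34 libraries, coloured by group. Repair replicate 5 of the short term (ACTA2 986 CPM) is highest in TAGLN and ACTG2, and gel replicate 3 (ACTA2 1830 CPM) is highest in ACTC1.

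Repair alone was set against injury only (5 against 4 libraries), the comparison that asks what the repair did in the short term. PDGFRB, CSPG4, ACTA2 and TAGLN had higher fitted values after repair and LMOD1 a lower one, but edgeR called 0 of 8 members and 0% of genes. At an unadjusted p under 0.05 there were 2 members (LMOD1 and TAGLN) and 1973 genes, and DESeq2 called 1.79% of genes and 0 of 7 members, with no p for TAGLN. Log2 differences (repair minus injury) were 2.11 for TAGLN (SE 0.93, adjusted p 0.336), 2.08 for ACTA2 (SE 1.25, 0.403), 0.80 for PDGFRB (SE 0.43, 0.370), 0.47 for CSPG4 (SE 0.40, 0.538) and -1.73 for LMOD1 (SE 0.61, 0.322). Without repair replicate 5 TAGLN was 0.13 and ACTA2 -0.055.

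The calls changed with the treatment of libraries that stand apart. With limma voom and sample quality weights, which let such libraries count less, 4 of 8 members passed, against 34.7% of genes. These were PDGFRB (1.23, adjusted p 0.00647), CSPG4 (0.97, 0.0258) and TAGLN (1.33, 0.0403), higher after repair, and LMOD1 (-2.38, 0.00603), lower. Without injury replicate 3 and repair replicate 4 edgeR called 4 members, against 33.3% of genes: PDGFRB at 1.48 (adjusted p 0.0062), CSPG4 at 0.91 (0.035), TAGLN at 3.02 (0.0271) and LMOD1 at -2.64 (0.00638). With all 34 libraries in 1 edgeR fit only LMOD1 passed (-1.72, adjusted p 0.0306), against 4.84% of genes. Beside these members, 16 of 16 fibroblast genes lay above 0 (median log2 difference 1.89, 0 called) and 11 of 11 fibre genes below 0 (median -0.94, 0 called). So did 8 of 8 macrophage genes above 0 (median 1.80, 0 called) and 10 of 10 Schwann cell genes below 0 (median -0.89, 0 called). Their part in the members' differences was not tested.

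Gel-treated repair against injury only (5 against 4 libraries) shares its injury libraries with the comparison above. The edgeR test called 0 of 8 members and 0% of genes, with 1 member (ACTA2) and 2493 genes at an unadjusted p under 0.05, and DESeq2 called 5.83% of genes and 0 of 7 members, again with no p for TAGLN. ACTA2 had the largest difference (gel minus injury 3.07, SE 1.31, adjusted p 0.241), which was 1.21 without gel replicate 3. LMOD1 was at -0.80 (SE 0.61, adjusted p 0.503) and PDGFRB at 0.59 (SE 0.42, adjusted p 0.473). RGS5, CSPG4, MCAM, MYH11 and TAGLN lay between -0.29 and 0.30. With voom, ACTA2 (2.05, adjusted p 0.0353) and PDGFRB (1.00, adjusted p 0.0105) passed, 2 of 8 against 27.9% of genes. Without injury replicate 3 and repair replicate 4, edgeR called PDGFRB alone (1.08, adjusted p 0.028), against 18.9% of genes. With all 34 libraries in 1 fit it called ACTA2 alone (3.06, adjusted p 0.0313), against 8.39%. Beside these members, 8 of 8 macrophage genes (median 2.12) and 12 of 16 fibroblast genes (median 0.68) lay above 0, and 10 of 11 fibre genes below 0 (median -0.30), with 0 called in each list. Their part was not tested.

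Gel and repair alone were compared again in the long term (5 against 5 libraries). None of the 8 members passed by edgeR over 11605 genes (background 0%), with 0 members and 1648 genes at an unadjusted p under 0.05, and DESeq2 called 0 members and 0.0603% of genes. Fitted log2 differences (gel minus repair) were 0.50 for TAGLN (SE 0.36, adjusted p 0.497), 0.47 for LMOD1 (SE 0.26, 0.405), -0.35 for MCAM (SE 0.22, 0.445) and -0.47 for RGS5 (SE 0.37, 0.538). The RGS5 value was -0.19 and the TAGLN value 0.16 without gel replicate 1. ACTA2, CSPG4, MYH11 and PDGFRB lay between -0.07 and 0.22, and CSPG4 was -0.32 without gel replicate 1. Beside them, 14 of 14 fibroblast genes (median -0.66) and 7 of 7 macrophage genes (median -0.64) lay below 0, with 0 called. The 95% intervals of the 8 differences reached from -1.23 (RGS5) to 1.26 (TAGLN).

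Repair alone against uninjured muscle (5 against 10 libraries) asks how far the repaired muscle still differed. The 2 largest positive differences were those of CSPG4 (repair minus uninjured 0.44, SE 0.23, adjusted p 0.469) and MCAM (0.40, SE 0.19, adjusted p 0.405), and the lowest was that of LMOD1 (-0.36, SE 0.23, adjusted p 0.616). The other 5 lay between -0.29 and 0.19. By edgeR 0 of 8 members passed, against 1.01% of genes, with 1 member (MCAM) and 1360 genes at an unadjusted p under 0.05, and DESeq2 called 0 members and 2.02% of genes. Beside CSPG4 and MCAM, 14 of 14 fibroblast genes (median 0.73, 1 called) and 7 of 7 macrophage genes (median 0.95, 0 called) lay above 0. Their part in the members' differences was not tested.

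Gel against uninjured muscle (5 against 10 libraries) uses the same 10 uninjured libraries. By edgeR 0 of 8 members passed, against 0.00862% of genes, with 1 member (CSPG4) and 1606 genes at an unadjusted p under 0.05, and DESeq2 called 0 members and 0.129% of genes. CSPG4 was at 0.49 (gel minus uninjured, SE 0.23, adjusted p 0.350) and RGS5 at -0.52 (SE 0.32, adjusted p 0.449), and the other 6 lay between -0.02 and 0.21. Without gel replicate 1 CSPG4 was 0.11, RGS5 -0.25 and TAGLN -0.14 (0.21 with it). Beside them, 7 of 7 macrophage genes (median 0.37) and 11 of 14 fibroblast genes (median 0.15) lay above 0, with 0 called.

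**Figure D3:**
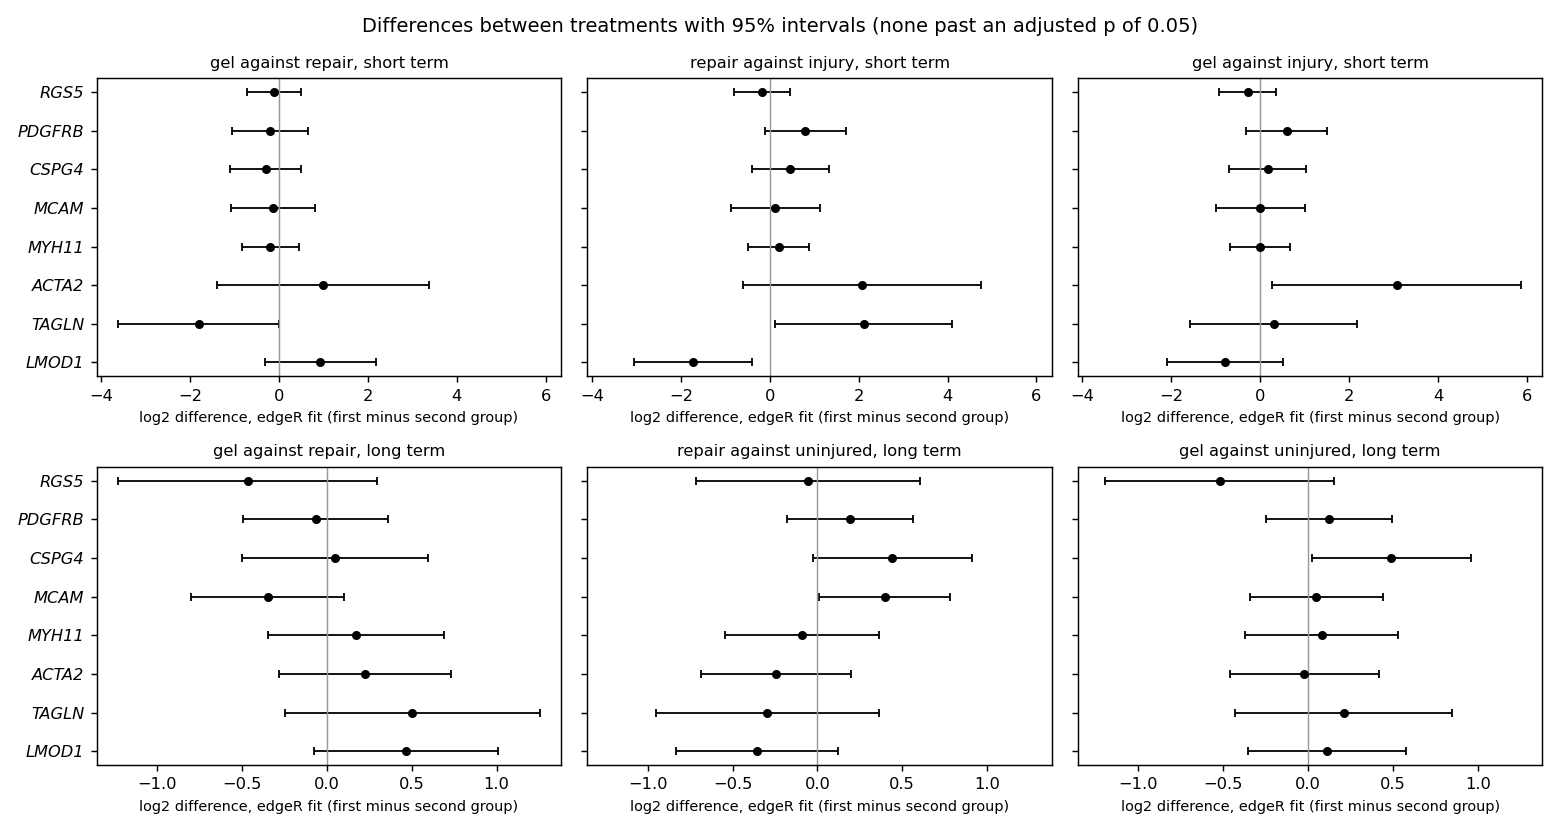
Log2 difference of each gene between treatments (first minus second group, x axis) in the 3 short-term (upper) and 3 long-term (lower) comparisons; points are edgeR estimates and bars 95% intervals, with separate x scales for the 2 terms. Intervals are widest for ACTA2 and TAGLN in the short term, and none of the 48 differences passed an adjusted p of 0.05.

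The animal codes in the names of the deposited files link each of the 10 operated long-term muscles to an uninjured one. In 5 of 5 animals CSPG4 was higher on the repaired side: 28.1 against 20 CPM, 18.6 against 16.6 CPM, 26.2 against 17.1 CPM, 31.5 against 12.4 CPM and 18.7 against 16.4 CPM. The mean log2 difference was 0.56 ± 0.48 (SD, n = 5 animals), with single values from 0.16 to 1.34. No other member went the same way in 5 of 5 animals with either treatment. The share of all genes that did so is not given here. In the same animals the summed macrophage genes were higher on the repaired side in 5 of 5 (mean 0.86 ± 0.65, SD) and the summed fibroblast genes in 4 of 5 (0.84 ± 0.90, SD); their part was not tested. With the gel, CSPG4 was higher in 3 of 5 animals, most in replicate 1 (50.9 against 17.8 CPM). On the repaired side PDGFRB and MCAM were each higher in 4 of 5 animals, and LMOD1 in 1 of 5. With the gel, RGS5 was higher in 1 of 5 animals and MYH11 in 4 of 5, the latter with a mean of 0.42 ± 0.65 (SD, n = 5 animals).

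With the animal as a block, edgeR called 0 of 8 members and 0% of genes in each of the 3 long-term comparisons. CSPG4 was at 0.58 for repair against uninjured muscle (SE 0.24, adjusted p 0.681), and LMOD1 at -0.49 (SE 0.21, adjusted p 0.687). For gel against repair, each taken from the animal's own uninjured muscle, LMOD1 was at 0.68 (SE 0.30, adjusted p 0.670) and MYH11 at 0.72 (SE 0.35, adjusted p 0.670).

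**Figure D4:**
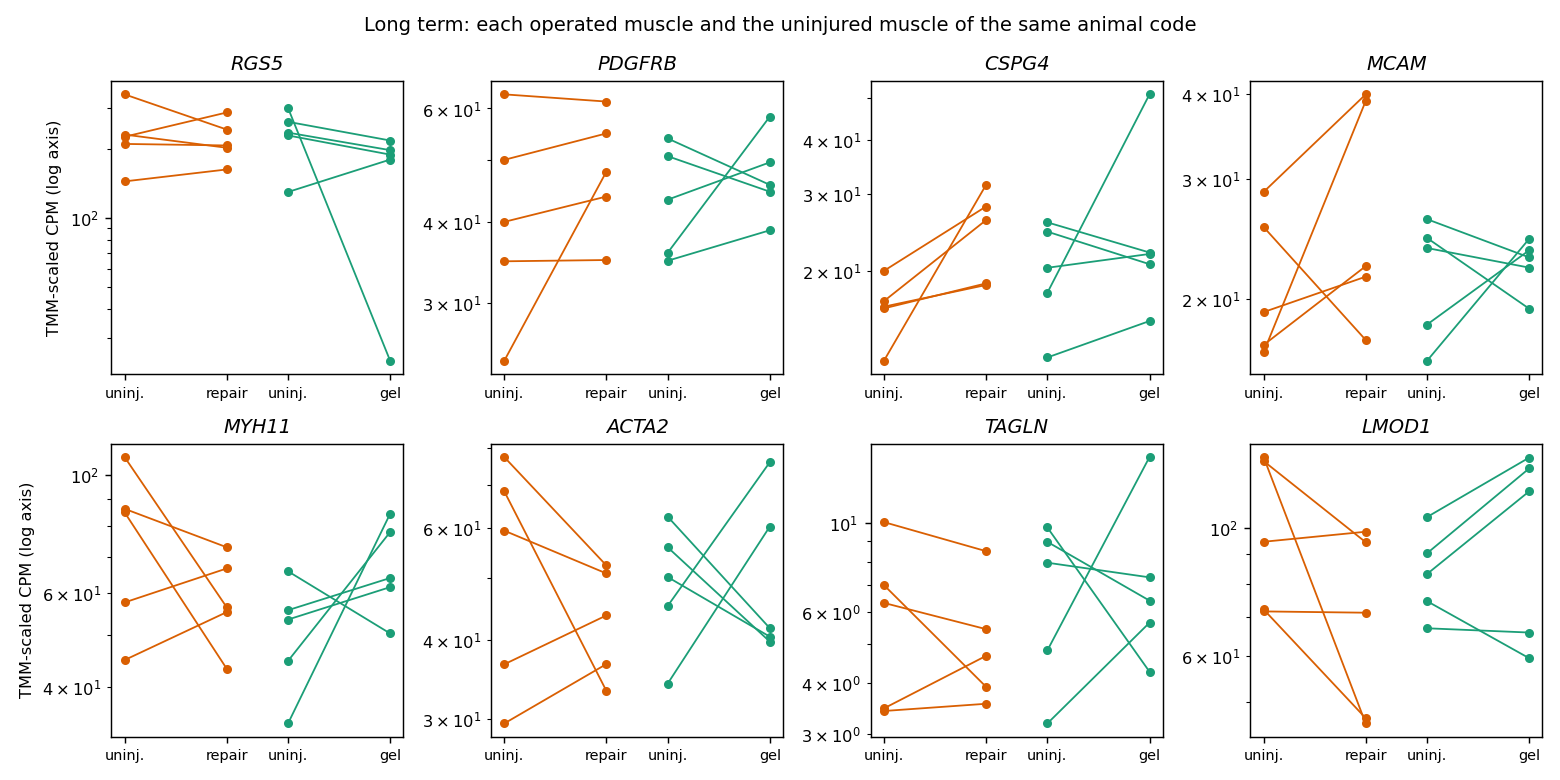
Level of each gene in the uninjured and the operated muscle with the same animal code, long term, in TMM-scaled CPM on log axes; each line is 1 animal (5 with repair, 5 with the gel). All 5 repair lines rise for CSPG4, and 1 gel line falls steeply for RGS5, from 300.5 to 23.9 CPM.

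More members passed between the terms, compared within repair (5 long-term against 5 short-term libraries) and within the gel (5 against 5). Term coincides with depth and with any batch that went with it, so these differences cannot be assigned to time alone. After repair MYH11 and RGS5 rose and TAGLN, ACTA2, CSPG4 and PDGFRB fell: 2 members passed upward, against 18.2% of genes, and 4 downward, against 27.9%, by edgeR over 12935 genes. That is 6 of 8 against 46.2% in both directions. With the gel MYH11 rose (1 of 8, against 21.8% of genes) and ACTA2 and TAGLN fell (2 of 8, against 26.5%), which is 3 of 8 against 48.3%. The members' median log2 difference was -0.73 after repair and -0.69 with the gel, where the medians of all genes tested were -0.11 and -0.09.

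Among the smooth muscle genes, TAGLN changed by -4.70 after repair (long minus short, SE 0.71, adjusted p 5.24e-06) and by -2.33 with the gel (SE 0.64, adjusted p 0.0038), with no overlap of the terms in either. Without repair replicate 5 of the short term it was -2.74, still past the threshold. ACTA2 changed by -2.48 (SE 0.79, adjusted p 0.0113) and -3.19 (SE 0.81, adjusted p 0.00188). Its calls rested on single libraries: without repair replicate 5 it was -0.37, and without gel replicate 3 it was -1.36, neither past the threshold. MYH11 went the other way, by 1.03 after repair (SE 0.28, adjusted p 0.00343) and 1.46 with the gel (SE 0.28, adjusted p 0.000108), which is 2.04-fold and 2.75-fold higher. It passed in all 10 fits of each comparison with 1 library left out, and with the gel its terms did not overlap. How many of all genes had terms without overlap is not given here. LMOD1 was at 0.84 (SE 0.44, adjusted p 0.112) and 0.46 (SE 0.43, adjusted p 0.390), and its repair value passed without repair replicate 4 of the short term (1.38).

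Among the pericyte genes RGS5 was at 0.99 after repair (SE 0.34, adjusted p 0.0197), with no overlap of the terms. The share of all genes without such overlap is again not given. RGS5 no longer passed without repair replicate 1 of the short term (0.86) or repair replicate 3 of the long term (0.87). It was at 0.70 with the gel (SE 0.34, adjusted p 0.0920), where leaving out gel replicate 1 of the long term gave 1.01, past the threshold. CSPG4 was at -1.08 after repair (SE 0.32, adjusted p 0.0076) and at -0.67 with the gel (SE 0.32, adjusted p 0.0865), or -1.003, past the threshold, without gel replicate 1 of the long term. PDGFRB was at -0.91 after repair (SE 0.30, adjusted p 0.0154) and -0.71 with the gel (SE 0.30, adjusted p 0.0529). Its repair value was -0.64, and not past the threshold, without repair replicate 5 of the short term. MCAM was at -0.56 (SE 0.33, adjusted p 0.163) and -0.72 (SE 0.33, adjusted p 0.0726). With the gel, PDGFRB passed without gel replicate 4 (-0.79) or 5 (-0.81) of the short term, and MCAM without gel replicate 2 (-0.86). With voom the gel comparison called 7 of 8 members, against 60.9% of genes, and the repair comparison 6 of 8, against 55.4%. The latter 6 were not those of edgeR: ACTA2 no longer passed (-0.80, adjusted p 0.156) and LMOD1 did (1.28, adjusted p 0.00712). Beside them, the 16 fibroblast genes had medians of -3.22 (0 rose and 14 fell) and -2.38 (0 rose and 13 fell), and the 14 endothelial genes 0.20 and 0.25. The 8 macrophage genes had medians of -2.995 (7 fell) and -3.27 (8 fell). The part of these lists was not tested.

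Whether the effect of the gel differed between terms was tested as an interaction over all 34 libraries. TAGLN had the largest value (2.38, SE 0.89, adjusted p 0.292), which was 0.41 without repair replicate 5 of the short term. ACTA2 was at -0.71 (SE 1.06, adjusted p 0.834), and at 1.12 without gel replicate 3 of the short term. By edgeR 0 of 8 members passed, against 0.0155% of genes, with 1 member (TAGLN) and 1646 genes at an unadjusted p under 0.05. DESeq2 called 0 members and 0.216% of genes, and voom 0 members and 0.0387% of genes.

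How the members moved together was described by Pearson correlation of log2 CPM after the mean of each group was removed. Points share their library, and a library rich in fibre RNA leaves fewer counts for all other genes. PDGFRB and CSPG4 moved together in both terms (r 0.80 over 14 short-term and 0.72 over 20 long-term libraries, Spearman's rho 0.85 and 0.82). ACTA2 and TAGLN did so too (0.80 and 0.65, rho 0.63 and 0.61). MYH11 and ACTA2 had an r of 0.81 in the long term (rho 0.77) and 0.37 in the short term (rho 0.15). RGS5 had values from -0.58 (with CSPG4) to 0.11 (with MCAM) in the long term. These rested in part on 2 libraries: without the 2 farthest from the RGS5 median the values were 0.06 with CSPG4, 0.46 with PDGFRB and 0.44 with MCAM, and the lowest was -0.52 with LMOD1.

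LMOD1 stood apart from the other members. In the short term its correlation was below 0 with all 7, from -0.94 with PDGFRB to -0.04 with RGS5. It followed the summed fibre genes instead (r 0.88 short term and 0.62 long term, and 0.81 and 0.54 without the 2 farthest libraries). PDGFRB ran against the fibre genes (r -0.96 and -0.53) and with the summed fibroblast genes (0.92 and 0.69), and MCAM also ran against the fibre genes (-0.83 and -0.71). LMOD1 is called a smooth muscle marker, but in these libraries its level was highest where fibre RNA was.

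**Figure D5:**
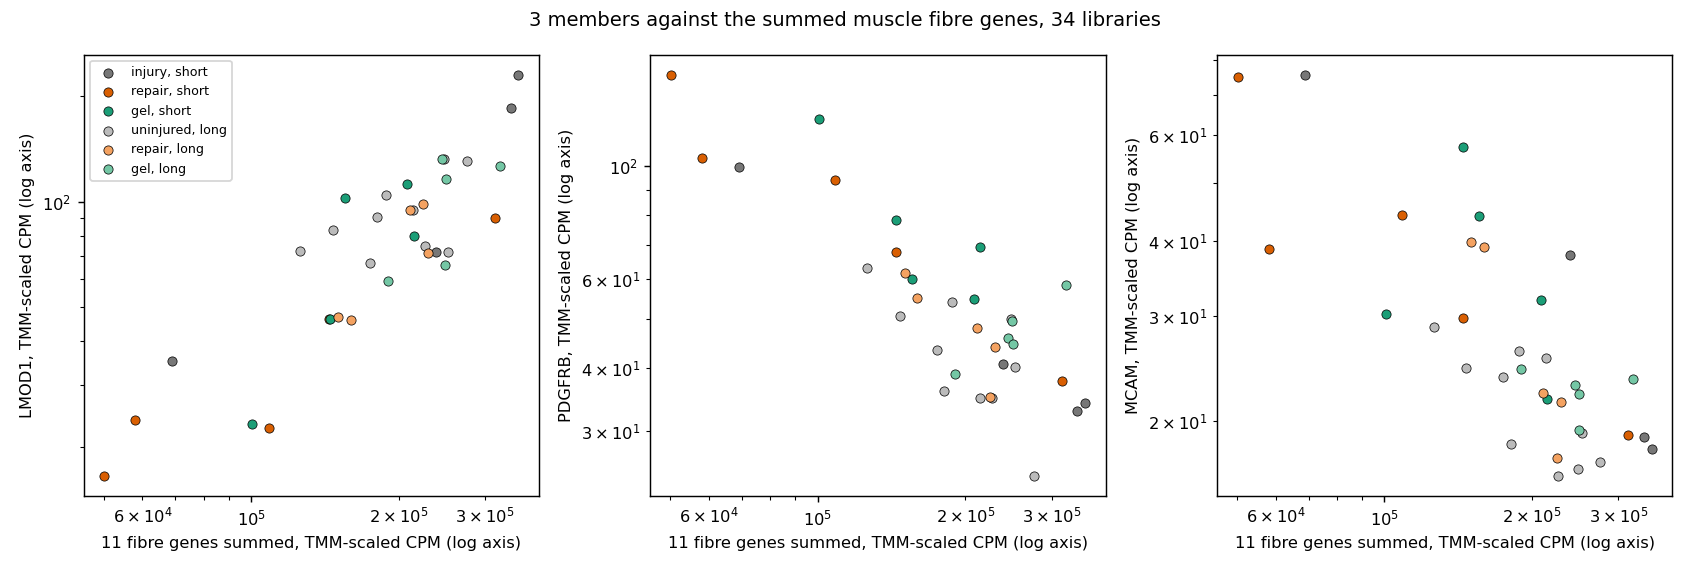
LMOD1, PDGFRB and MCAM (y axes) against the sum of 11 skeletal fibre genes (x axis), in TMM-scaled CPM on log axes; each point is 1 of 34 libraries, coloured by group. LMOD1 climbs with the fibre sum from 16.5 to 231 CPM, while PDGFRB and MCAM decline.

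Genes most like 3 of the members were sought over all 34 libraries, with group means removed. For RGS5 these were FHL5 (r 0.932), BOD1L1 (0.905), NET1 (0.903), U2SURP (0.897) and C2CD5 (0.882). For MYH11 they were SCUBE3 (0.737), SUSD2 (0.714), MCAM (0.691), TP53I11 (0.689) and LUZP1 (0.679). For ACTA2 they were LOC100351987 (0.900), LOC100349824, which RefSeq names MYL6, a myosin light chain (0.884), RCN3 (0.870), MANF (0.859) and MYL9, the smooth muscle regulatory light chain (0.855). Gel replicate 1 of the long term had the lowest RGS5 of all 34 libraries. In it 32.9% of 11605 genes lay below all 19 other long-term libraries, and its part in the RGS5 correlations was not tested. ACTA2 was at 986 CPM in repair replicate 5 and at 1830 CPM in gel replicate 3 of the short term. The part of these libraries in the ACTA2 correlations was not tested either. The names changed with the settings. Without removal of group means 2 of the 5 were shared for RGS5, 0 for MYH11 and 2 for ACTA2, and over the 20 long-term libraries alone 2, 1 and 2. In the long term ACTA2 was most like MYH11 and MYH11 most like ACTA2 (0.806).

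Other genes known from mural cells were read from lists of 17 further pericyte genes, 33 further smooth muscle genes and 8 PDGF pathway genes. Not all are exclusive to mural cells. The smooth muscle list summed to between 17900 and 82110 CPM in each library. It was highest in gel replicate 1 of the long term, where the fibre gene ACTA1 was also highest (139800 CPM). Which cells its changes came from was not tested. Within the terms edgeR called 1 gene of the lists, PDGFD, a PDGF ligand that binds PDGFRB. It was higher in repaired than in uninjured long-term muscle (1.37, SE 0.29, adjusted p 0.0244). That is 1 of 8 PDGF pathway genes against 1.01% of all genes. The call was lost with the animal as a block (1.14, adjusted p 0.561), and without repair replicate 1 (0.97, adjusted p 0.236), 3 (1.29, 0.0836) or 4 (1.37, 0.0553). It was also lost under voom (1.13, 0.0748) and with all 34 libraries in 1 fit (1.34, 0.424). In the same comparison the angiopoietin gene ANGPT1, by which pericytes steady the endothelium, led the pericyte list (0.89, SE 0.28, adjusted p 0.170), and PPP1R12B, a myosin phosphatase subunit, the smooth muscle list (0.34, SE 0.16, adjusted p 0.403).

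In the short term ANPEP, an aminopeptidase of pericytes and many other cells, had the smallest p of the pericyte list for gel against repair (1.27, SE 0.32, adjusted p 0.383) and for gel against injury (0.91, SE 0.34, adjusted p 0.200). CD248 (endosialin), found on activated pericytes and fibroblasts, led it for repair against injury (2.45, SE 0.89, adjusted p 0.322). The smooth muscle list was led by HSPB6, a small heat shock protein gene (0.80, SE 0.27, adjusted p 0.413), ACTG2 (2.48, SE 0.99, adjusted p 0.322) and SRF, the transcription factor that drives contractile genes (-0.59, SE 0.26, adjusted p 0.247), in gel against repair, repair against injury and gel against injury. PDGFB, the ligand from endothelium, led the PDGF genes for gel against repair (0.59, SE 0.23, adjusted p 0.429), PDGFRL (1.84, SE 0.67, adjusted p 0.322) for repair against injury, and PDGFA (-0.77, SE 0.38, adjusted p 0.290) for gel against injury. In the long term the genes of smallest p for gel against repair were the Notch target HEYL (0.66, SE 0.20), PDLIM7 (0.64, SE 0.24) and PDGFD (-1.04, SE 0.35), each at an adjusted p of 0.302. For gel against uninjured muscle they were PDE5A, which breaks down cyclic GMP (-0.39, SE 0.23, adjusted p 0.427), SRF (0.38, SE 0.14, adjusted p 0.325) and the co-receptor gene NRP1 (-0.17, SE 0.11, adjusted p 0.459). None of these passed.

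Between the terms many list genes passed, as did 46.2% and 48.3% of all genes. Of 17 pericyte genes 3 rose and 4 fell after repair, and 3 rose and 1 fell with the gel. NOTCH3, the Notch receptor of mural cells (0.84 and 0.80), ANGPT1 (1.84 and 1.08) and ABCC9, a potassium channel subunit gene (0.73 and 0.54), rose in both. Whether pericytes or other cells of the muscle gave rise to these changes was not tested. CD248 (-2.63) and the transcription factor TBX18 (-1.97) fell after repair, and the globin gene CYGB (-1.35) fell with the gel. NDUFA4L2 (-1.95 after repair) was 0.59 without repair replicate 5 of the short term, and TBX18 was -1.12 and no longer passed. In the gel comparison ABCC9 lost its call on leaving out any of 7 of the 10 libraries (0.39 to 0.57 in these fits) and ANGPT1 any of 6 (0.90 to 1.09).

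Of 33 smooth muscle genes 8 rose and 10 fell after repair, and 10 rose and 3 fell with the gel. HSPB6 (3.21 and 2.66), PPP1R12B (1.98 and 1.53) and SYNPO2, an actin-bundling protein gene (1.93 and 1.91), rose in both, and CNN3, the acidic calponin (-2.76 and -1.87), fell in both. HSPB6 and SYNPO2 are also known from skeletal fibres, and the cells behind the changes of this list were not tested. ACTG2 (-2.78) and the actinin gene ACTN1 (-2.45) fell after repair, and without repair replicate 5 of the short term they were -0.54 and -0.80, not past the threshold. The calcium-binding gene CASQ2 (-2.87) and the angiotensin receptor gene AGTR1 (-1.18) fell with the gel. Of 8 PDGF pathway genes 1 rose and 5 fell after repair, and 2 rose and 3 fell with the gel. PDGFB (0.91 and 0.61) rose in both, and PDGFRL (-3.37 and -2.74), PLAT, the plasminogen activator that activates PDGF-C (-3.95 and -2.01), and PDGFRA, the receptor of fibro-adipogenic progenitors (-1.998 and -1.09), fell in both. NRP1 (0.46) rose with the gel. In the gel comparison PLAT (-1.37) and PDGFRA (-0.91) no longer passed without gel replicate 3 of the short term, nor did PDGFRA without gel replicate 1 of the long term (-0.94). NRP1 no longer passed without gel replicate 2 (0.380) or 5 (0.382) of the short term or gel replicate 3 of the long term (0.385).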

How the data were processed

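Per the files, the authors deposited whole-number read counts for each gene of 34 libraries, not normalized. The submitters' processing notes name STAR, edgeR and OryCun2.0; no source used here names the counting tool, annotation or strand setting. Left out were 26 entries with names turned into dates (0.163% of a library or less), and 15 entries sharing 7 symbols were added up. Of 91 within-group pairs of libraries 0 were identical.

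Counts were fitted with edgeR 4.0.16 in R 4.3.3 (TMM, filtering by expression, robust quasi-likelihood test, 2-sided), separately for each term and over all 34 libraries between terms, with Benjamini-Hochberg adjustment over all genes tested and a threshold of 0.05. Log2 CPM used a prior count of 2. The fit was also run on simulated counts with known changes, and the outcome is not given here. The simulated libraries had no shifts shared by many genes, so that run cannot speak for libraries that stand apart. Members and lists were chosen with earlier results of these data known. The rule named every member, up to 3 genes past the threshold per list and direction (otherwise the one with the smallest p), the actins and the 5 genes most like RGS5, MYH11 and ACTA2.

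Alternatives were DESeq2 1.42.0, its size factors, limma 3.58.1 voom with quality weights, no filter, other sets of libraries, replicate blocks, and each library left out. The long-term replicate block pairs muscles by the animal codes in the deposited files' names; deviations of same-animal libraries correlated above 0.1 in 6 of 10 pairs (-0.19 to 0.32), and with it edgeR called 0 members. RefSeq names come from another rabbit assembly.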

Additional observations from a re-analysis of the deposited data

Results flagged for a closer look

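Each member was searched in each of the 6 groups for a library far from the others, and 7 of 48 sets had one. Chance gives about 1 in 20, but the sets are not independent, since some libraries gave more than 1 of the 7. No share of all genes with such a library is given here, so these values cannot decide whether the members stand out from other genes. In the long term gel replicate 1 had the lowest RGS5 (23.9 CPM) and the highest CSPG4 (50.9 CPM) of its group. With it lay 4 of 17 other pericyte genes below all 19 other long-term libraries (ABCC9, TBX18, ANGPT1 and PDE5A) and 4 of 17 above them (NDUFA4L2, S1PR3, TBX2 and HEYL). Over all genes these shares were 32.9% below and 30.9% above. ABCC9 was at 109.2 CPM there, against 207.8 to 316.5 CPM.

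In the short term ACTA2 had an outlying library in each group: 986 CPM in repair replicate 5, 1830 CPM in gel replicate 3 and 116 CPM in injury replicate 3. TAGLN was at 541 CPM in repair replicate 5, and PDGFRB at 99.7 CPM in injury replicate 3. Injury replicate 3 also had the highest fibroblast sum of its group (9802 CPM, the others 1444 to 2405) and the highest endothelial sum (1026 CPM, the others 466.6 to 506.9). The part of these cells in the outlying values was not tested.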

How the results depend on the processing

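The fits called 0 members in each of the 6 comparisons within a term, and DESeq2's size factors, no filter and only the groups compared called 0 as well. DESeq2 called 0 of the 7 members with a p in the short term (TAGLN had none) and 0 of 8 in the long term. The exceptions were repair against injury, with 4 members under voom, 4 without injury replicate 3 and repair replicate 4, and 1 with all 34 libraries in 1 fit, and gel against injury, with 2, 1 and 1. With each library left out the count was 0 throughout. Between terms the repair count was 6 (4 to 7 with a library left out) and the gel count 3 (2 to 5 with a library left out, 5 without gel replicate 1 of the long term), and voom called 7 with the gel.

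With the replicate number of the titles as a replicate block, the repair count between terms was 2 (ACTA2 and TAGLN), the gel count stayed at 3, and CSPG4 with the gel reversed to 0.10. No label says that equal numbers pair libraries. Correlations of deviations exceeded 0.1 in 5 of 13 short-term pairs (-0.39 to 0.41) and 3 of 15 long-term pairs (-0.38 to 0.32). Without pairs of unequal number beside them, these values cannot decide whether the numbers pair libraries. The animal block changed no member's call. Of the 72 member differences 23 changed sign in at least 1 fit with a library left out (43 of 864 fits). Among differences at least as large as their SE, or past the threshold for list genes, without repair replicate 5 of the short term TAGLN in gel against repair became 0.14, ACTA2 in repair against injury -0.055 and NDUFA4L2 between terms 0.59, and without gel replicate 3 ACTA2 in gel against repair, smaller than its SE, became -0.82. NDUFA4L2 was 0.18 under voom. Causes were not tested beyond leaving these libraries out.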
